A study of Mus musculus with 9 samples.

Results

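The transcription factors that act along the granulocyte lineage were followed in neutrophils sorted from mouse lung. The group holds 10 genes, *Cebpa*, *Myb*, *Gfi1*, *Runx1*, *Cebpe*, *Cebpb*, *Cebpd*, *Spi1*, *Irf8* and *Bcl6*, chosen by gene symbol for their known roles and not by their values. All 10 were among the 18325 genes with values and among the 14108 genes tested. The data were 9 bulk RNA-seq libraries from female BALB/c mice, bought at 6 to 8 weeks of age, with 3 libraries in each of 3 groups. The macrometastatic Ly6Ghigh and macrometastatic Ly6Glow groups were CD45+ neutrophils with high or low surface Ly6g from lungs that carried macrometastases after 4T1-LM3 cells had been placed in the mammary fat pad. These cells descend from 4T1, a mammary carcinoma line of the mouse, by selection for growth in lung. The normal lung Ly6Ghigh group was Ly6Ghigh neutrophils from the lungs of mice without tumor. It is the control for the disease state, and no Ly6Glow sort from normal lung was analysed here. Whether each library is from 1 mouse or several is not stated, so the p-values measure only the spread between these libraries, which may be technical.

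Neutrophils arise in the bone marrow from progenitors that pass through promyelocyte and myelocyte stages before the nucleus becomes segmented. C/EBP-alpha opens the granulocyte program in progenitors and Myb keeps them dividing. Gfi1 represses genes of other lineages and, with C/EBP-epsilon, carries cells through the promyelocyte stage, at which primary granule proteins give way to secondary granule proteins. C/EBP-beta drives the granulocyte output that follows infection or cytokines. PU.1, the product of *Spi1*, serves all myeloid cells, and Irf8 steers shared progenitors toward monocytes and dendritic cells and away from granulocytes. The levels of these genes therefore bear on how mature a population of neutrophils is, which is the question asked of them here.

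The estimated counts summed to 15267177 to 17841807 per library. Levels are given as CPM, counts scaled to library size, after edgeR's TMM scaling, whose factors ran from 0.803 to 1.32. A gene was called when its edgeR adjusted p was at most 0.05 and its log2 fold change was above 0.58 in size. The TMM scale matters here, because FPKM, which is scaled to each library's total and to transcript length, moved the median log2 fold change of all genes from -0.04 to -0.13 in Ly6Glow over Ly6Ghigh, from -0.09 to -0.32 in macrometastatic over normal lung Ly6Ghigh and from -0.16 to -0.49 in Ly6Glow over normal lung. With 3 libraries a group, 0.1 is the smallest p of an exact permutation test, so all p-values come from edgeR's model of all genes. No 2 libraries of a group agreed within sampling noise, and normal lung replicate 2 stood apart from its group, with a chi-square per degree of freedom of 5.30 and 4.05 against the other normal lung libraries and 1.41 to 2.505 in the pairs without it. *Ly6g*, whose protein was used for the sort, did not separate the macrometastatic groups by RNA, at 374 ± 10.8 CPM (SD, n = 3) in Ly6Ghigh and 394 ± 9.32 CPM in Ly6Glow, and stood at 119 ± 1.403 CPM in normal lung.

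The libraries were checked for other cells with marker lists. The 6 neutrophil markers, led by *S100a9*, summed to 65025 to 66873 CPM in macrometastatic Ly6Ghigh libraries, to 68315 to 70069 CPM in Ly6Glow libraries and to 16451 to 16762 CPM in normal lung libraries. In normal lung, 8 alveolar macrophage markers summed to 634 to 645 CPM, against 168 to 170 CPM in macrometastatic Ly6Ghigh and 23.4 to 25.4 CPM in Ly6Glow, with *Marco* under 1 CPM in both macrometastatic groups. The 6 epithelial and tumor markers, led by *Sftpc*, summed to 853 to 946 CPM in normal lung, 67.3 to 72.3 CPM in macrometastatic Ly6Ghigh and 65.0 to 69.8 CPM in Ly6Glow, and *Krt14* was under 1 CPM in every library. The 8 endothelial and fibroblast markers, led by *Pecam1*, summed to 1126 to 1221 CPM, 160 to 170 CPM and 191 to 204 CPM in the same order. The normal lung libraries thus had the lowest share of neutrophil marker RNA and the highest share of marker RNA of other lung cells. The 7 dendritic cell markers summed to 48.2 to 53.6 CPM in normal lung and to 14.4 to 16.6 CPM in macrometastatic Ly6Ghigh and 15.3 to 16.7 CPM in Ly6Glow. The 9 monocyte and macrophage markers summed to 995 to 1007 CPM in normal lung, where *Mrc1* led, and to 676 to 688 CPM in macrometastatic Ly6Ghigh and 540 to 555 CPM in Ly6Glow, where *Csf1r* led. The 7 T and NK cell markers, led by *Cd3d*, summed to 64.2 to 66.8 CPM, 41.9 to 43.3 CPM and 30.1 to 30.5 CPM in the same order, with *Ncr1* under 1 CPM in every library.

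Markers of eosinophils and B cells summed highest in the macrometastatic Ly6Ghigh libraries. The 6 eosinophil markers summed to 110 to 118 CPM there, to 36.2 to 37.9 CPM in Ly6Glow and to 40.6 to 43.3 CPM in normal lung, and *Ear6* led the list in macrometastatic Ly6Ghigh while *Siglecf* led it in the other groups. *Prg2*, which encodes the major basic protein of eosinophil granules, had 29.4 ± 1.19 CPM in macrometastatic Ly6Ghigh, 0.619 ± 0.451 CPM in Ly6Glow and 0.226 ± 0.0468 CPM in normal lung. The 9 basophil and mast cell markers summed to 1995 to 2051 CPM, 3721 to 3864 CPM and 2006 to 2177 CPM, nearly all from *Hdc*, while *Fcer1a*, *Cma1* and *Tpsb2* were under 1 CPM in every library. Of the 6 tested, 4 were lower and 1, *Hdc*, was higher in Ly6Glow over Ly6Ghigh, against the order of the sum. In macrometastatic over normal lung Ly6Ghigh, 4 were higher and 1, *Gata2*, was lower. The 6 B cell markers, led by *Cd79a* in the macrometastatic groups, summed to 48.6 to 49.6 CPM in macrometastatic Ly6Ghigh, 28.9 to 31.0 CPM in Ly6Glow and 30.4 to 33.0 CPM in normal lung. In such bulk libraries, fewer cells of a type and less RNA per cell cannot be told apart.

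**Figure D1:**
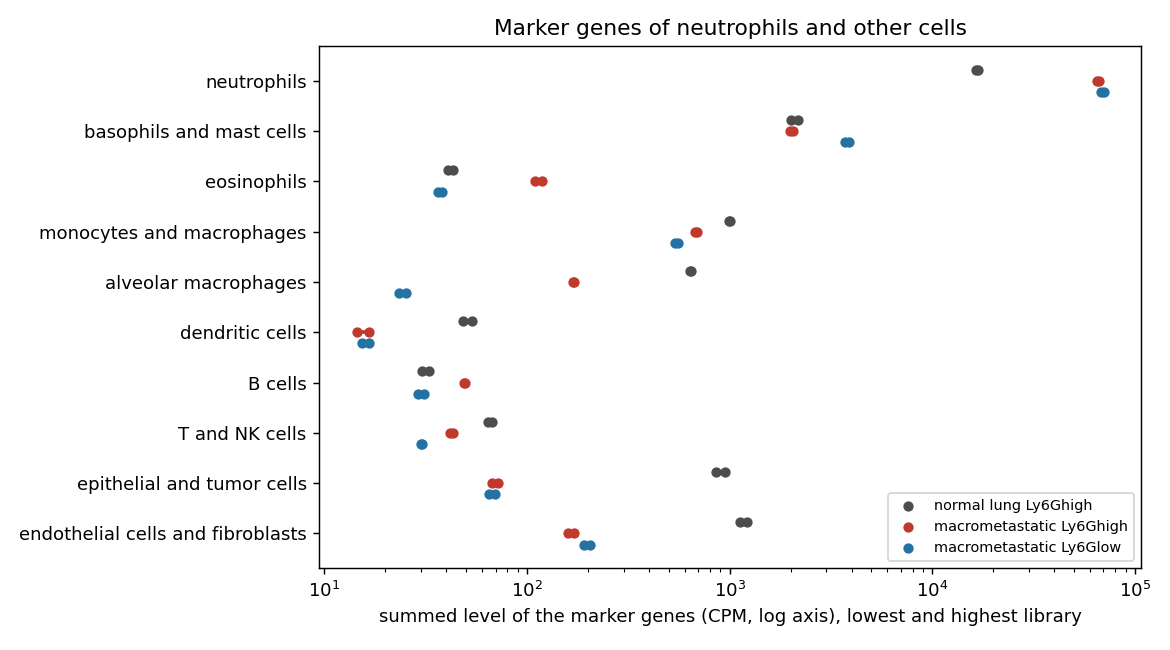
Summed level of each marker list in CPM (log axis), with the lowest and the highest of the 3 libraries of a group as points. The normal lung libraries have the lowest neutrophil sum, 16451 to 16762 CPM, and the highest sums for alveolar macrophages, epithelial cells and endothelial cells and fibroblasts.

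Promoter sequences are shown for 3 factors with opposite orders of level across the groups, *Cebpa* and *Irf8*, which were highest in normal lung and lowest in Ly6Glow, and *Bcl6*, which was lowest in normal lung and highest in Ly6Glow. The sequences are RefSeq's on GRCm38.p6, from 250 bases before to 50 bases after the start of transcription, read 5′ to 3′ on the gene's strand. Of the 10 factors, 7 were matched in that table, with 11 promoters, and *Cebpe*, *Cebpd* and *Spi1* were not. Capitals mark matches to the letters searched. The *Cebpa* promoter and the first of 2 promoters of *Irf8* lie at chr7:35119043-35119342 (+) and chr8:120736108-120736407 (+), and the second of 2 promoters of *Bcl6* lies at chr16:23981234-23981533 (-). Of *Irf8* and *Bcl6* the promoter with more matches is shown.
Cebpa: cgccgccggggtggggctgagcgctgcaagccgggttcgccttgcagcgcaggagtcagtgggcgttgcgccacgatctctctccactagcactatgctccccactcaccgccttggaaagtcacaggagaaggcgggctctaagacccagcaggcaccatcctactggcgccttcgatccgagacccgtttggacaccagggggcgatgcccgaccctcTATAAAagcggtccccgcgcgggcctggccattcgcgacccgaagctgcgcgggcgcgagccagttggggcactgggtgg
Irf8: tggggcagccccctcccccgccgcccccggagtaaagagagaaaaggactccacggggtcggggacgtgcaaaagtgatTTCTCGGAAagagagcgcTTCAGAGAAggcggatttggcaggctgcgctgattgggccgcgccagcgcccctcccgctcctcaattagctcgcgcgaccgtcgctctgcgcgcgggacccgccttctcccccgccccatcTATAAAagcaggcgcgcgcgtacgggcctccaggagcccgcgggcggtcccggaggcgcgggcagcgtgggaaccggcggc
Bcl6: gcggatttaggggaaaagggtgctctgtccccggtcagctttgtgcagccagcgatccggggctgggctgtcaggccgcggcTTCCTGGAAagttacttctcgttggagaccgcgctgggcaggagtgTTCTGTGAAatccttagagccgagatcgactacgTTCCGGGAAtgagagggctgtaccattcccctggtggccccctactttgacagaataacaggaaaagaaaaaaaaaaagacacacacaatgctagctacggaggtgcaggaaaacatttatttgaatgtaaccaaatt

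The letters searched on both strands were TTGCNNAA for C/EBP, GAGGAAGT for PU.1, TGTGGT for RUNX, a pair of GAAA runs with 2 bases of any kind between them for IRF factors, TTCNNNGAA for the STAT-bound GAS element and TATAAA for a TATA box. Of all 32851 promoters in the table, 10.8% held the C/EBP letters, 3.20% those of PU.1, 16.8% those of RUNX, 3.44% those of IRF factors, 8.30% the GAS letters and 13.6% the TATA letters. The *Bcl6* promoter shown held 3 GAS matches, at -168, -122 and -88 from the start, and its other promoter held 1, at -118. The *Irf8* promoter shown held 2, at -171 and -153, with TATAAA at -31, and its other promoter held no match to any of the letters. The *Cebpa* promoter held TATAAA at -30 and no other match. Among the promoters not shown, *Gfi1* had a C/EBP match at -143, *Runx1* had RUNX matches at 28 and 36 and *Cebpb* had TATAAA at 21. No matches overlapped. These are matches of letters in short windows and say nothing of binding.

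The 10 factors gave 3 main orders across the groups. The early factors *Cebpa* and *Myb* were highest in normal lung and lowest in Ly6Glow, and *Myb* did not pass the fold threshold between the Ly6Ghigh groups on the TMM scale. The stage factors *Cebpe* and *Gfi1* were highest in macrometastatic Ly6Ghigh, although the *Gfi1* call over normal lung was lost on FPKM. By mean CPM on the TMM scale, 6 of 10 genes of the primary granule list, *Mpo* and *Prtn3* among them, and 12 of 15 secondary granule genes, *Ltf* and *Camp* among them, were also highest there. The others were highest in Ly6Glow (*Srgn*, *Mmp8*, *Hp*) or in normal lung (*Lyz2*, *Calr*, *Igfbp4*, *Arg1*). *Cebpb* and *Bcl6* were highest in Ly6Glow, as were 16 of 19 genes of mature neutrophils, *Cxcr2* among them. Of these 19, 9 were called higher in Ly6Glow over Ly6Ghigh, against 9.29% of all genes. Of the other factors, *Irf8* had the order of *Cebpa* and *Myb*, and *Runx1* was also highest in normal lung. By mean CPM *Cebpd* was highest in macrometastatic Ly6Ghigh and *Spi1* in Ly6Glow. The shares of all genes that were highest in each group were not counted.

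*Cebpa* (NCBI Gene 12606, chr7:35119293-35121928, + strand, GRCm38), the factor that opens granulocyte differentiation in progenitors, fell stepwise from normal lung to macrometastatic Ly6Ghigh to Ly6Glow neutrophils. Its level was 71.1, 61.5 and 69.1 CPM in the normal lung libraries, 21.2, 20.6 and 21.3 CPM in macrometastatic Ly6Ghigh and 11.5, 10.99 and 9.45 CPM in Ly6Glow, and no groups overlapped. The log2 fold change was -0.98 (edgeR adjusted p = 7e-09, SE 0.093) in Ly6Glow over Ly6Ghigh, -1.68 (edgeR adjusted p = 2.66e-16, SE 0.064) in macrometastatic over normal lung Ly6Ghigh and -2.66 (edgeR adjusted p = 1.43e-18, SE 0.077) in Ly6Glow over normal lung. The 3 comparisons share libraries, so a group that stands apart enters 2 of them. Alveolar macrophage, monocyte and macrophage and epithelial markers were also highest in normal lung, as given above. Alveolar macrophage sums were 168 to 170 CPM in macrometastatic Ly6Ghigh and 23.4 to 25.4 CPM in Ly6Glow. For monocytes and macrophages they were 676 to 688 CPM and 540 to 555 CPM, while the epithelial sums of these 2 groups overlapped. The part of these markers in any of the 3 differences was not tested.

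*Myb* (NCBI Gene 17863, chr10:21124930-21160984, - strand), which maintains dividing progenitors, was low throughout and fell in Ly6Glow neutrophils. It stood at 6.69, 9.40 and 6.76 CPM in normal lung, 5.47, 6.14 and 6.13 CPM in macrometastatic Ly6Ghigh and 1.06, 1.73 and 2.06 CPM in Ly6Glow. These levels rest on 149 to 206, 89 to 104 and 13 to 27 estimated counts per library. Its log2 fold change was -1.86 (edgeR adjusted p = 1.85e-07, SE 0.216) in Ly6Glow over Ly6Ghigh and -2.22 (edgeR adjusted p = 9.18e-10, SE 0.200) in Ly6Glow over normal lung. The macrometastatic and normal lung Ly6Ghigh groups did not overlap, but their log2 fold change of -0.36 (edgeR adjusted p = 0.0235, SE 0.143) did not pass the fold threshold, although on FPKM it did, at -0.59. Against the median of all genes this difference was -0.28 on the TMM scale and -0.26 on FPKM. T and NK cell marker sums were 64.2 to 66.8 CPM in normal lung and 41.9 to 43.3 CPM in macrometastatic Ly6Ghigh. In Ly6Glow they were 30.1 to 30.5 CPM. B cell marker sums were 30.4 to 33.0, 48.6 to 49.6 and 28.9 to 31.0 CPM in the same order. The part of either list was not tested.

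*Gfi1* (NCBI Gene 14581, chr5:107716655-107725805, - strand), the repressor needed for neutrophils to form, was the least abundant factor per length and peaked in macrometastatic Ly6Ghigh neutrophils. Its level was 2.47, 1.83 and 2.16 CPM in normal lung, 3.63, 3.84 and 3.84 CPM in macrometastatic Ly6Ghigh and 0.893, 0.527 and 0.915 CPM in Ly6Glow. The counts behind them were 40 to 55, 59 to 65 and 7 to 12 per library, so the Ly6Glow values rest on the fewest counts among the 10 factors. The log2 fold change was -2.27 (edgeR adjusted p = 3.3e-08, SE 0.236) in Ly6Glow over Ly6Ghigh and -1.47 (edgeR adjusted p = 1.54e-05, SE 0.253) in Ly6Glow over normal lung. Over normal lung, macrometastatic Ly6Ghigh neutrophils were higher by 0.80 (edgeR adjusted p = 0.000141, SE 0.167) on the log2 scale, a call that was lost on FPKM, at 0.20. B cell markers, whose lineage also uses *Gfi1*, were highest in the same group and their part was not tested.

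*Runx1* (NCBI Gene 12394, chr16:92601466-92826074, - strand), which founds the blood lineages and acts upstream of *Spi1*, varied least of the 10 factors on the TMM scale, though not on FPKM. It had 73.1, 71.5 and 78.8 CPM in normal lung, 52.3, 50 and 53.6 CPM in macrometastatic Ly6Ghigh and 52.9, 54.9 and 50.8 CPM in Ly6Glow, and the macrometastatic groups overlapped. Between them the log2 fold change was 0.03 (95% interval -0.08 to 0.13, edgeR adjusted p = 0.722), and on FPKM it was -0.20. Below normal lung, it stood at -0.52 (edgeR adjusted p = 2.5e-09, SE 0.049) in macrometastatic Ly6Ghigh and at -0.49 (edgeR adjusted p = 9.04e-09, SE 0.051) in Ly6Glow, short of the fold threshold. With upper-quartile scaling both passed it, at -0.71 and -0.68, and so they did on FPKM, at -0.81 and -1.02. Against the median of all genes both stayed short of it. They were -0.43 and -0.34 on the TMM scale and with upper-quartile scaling, and -0.49 and -0.53 on FPKM.

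*Cebpe* (NCBI Gene 110794, chr14:54710363-54712174, - strand), which acts at the step from promyelocyte to myelocyte and switches on secondary granule genes, showed the largest difference of the 10 factors on the TMM scale. *Irf8* in Ly6Glow over normal lung was larger in size on FPKM, at -3.65 against 2.82, and with upper-quartile scaling, at -3.47 against 3.33. *Cebpe* had 46.9, 48.5 and 46.8 CPM in macrometastatic Ly6Ghigh, 9.50, 7.15 and 7.55 CPM in Ly6Glow and 4.36, 3.42 and 4.60 CPM in normal lung, and the groups did not overlap. Macrometastatic Ly6Ghigh neutrophils were 11.5-fold above normal lung (log2 fold change 3.52, edgeR adjusted p = 1.72e-19, SE 0.089). Ly6Glow neutrophils were 5.89-fold below macrometastatic Ly6Ghigh (log2 fold change -2.56, edgeR adjusted p = 4.59e-16, SE 0.089). Ly6Glow stood above normal lung by 0.96 (edgeR adjusted p = 5.22e-07, SE 0.129), a call that was lost on FPKM, at 0.22. Against the median of all genes this difference was 1.12 on the TMM scale and 0.71 on FPKM. The size of the difference between these lower groups thus depends on the scale. *Cebpe* is also used by eosinophils, whose markers were highest in macrometastatic Ly6Ghigh and whose part in the difference was not tested. Of the 6 eosinophil markers, 3 were higher and 0 lower in Ly6Glow over normal lung (median log2 fold change 0.97), while the sum of the list, most of it *Siglecf*, was 36.2 to 37.9 CPM against 40.6 to 43.3 CPM. The part of these markers was not tested there either.

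**Figure D2:**
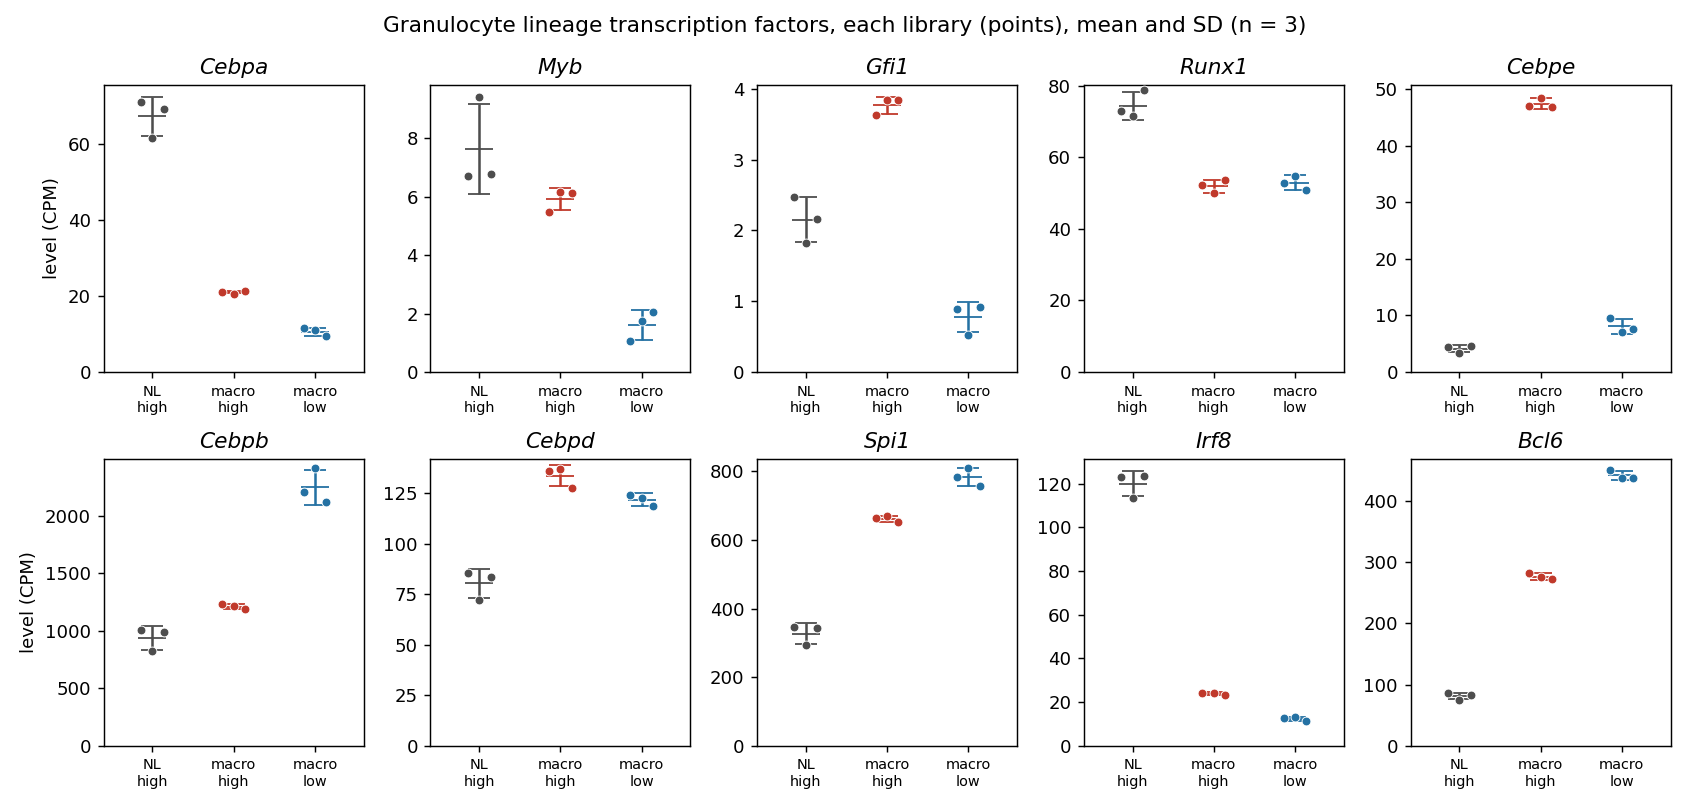
Level of each of the 10 factors in CPM (linear axes from 0), with each library as a point and the mean and SD of the 3 libraries of a group as bars; NL is normal lung and macro is macrometastatic lung, high and low being the Ly6G sort. *Cebpe* peaks in macrometastatic Ly6Ghigh at 46.8 to 48.5 CPM, *Cebpa* and *Irf8* are highest in normal lung, and *Cebpb*, *Spi1* and *Bcl6* are highest in Ly6Glow. On FPKM the group means of *Spi1* in the macrometastatic groups are 442 and 444.

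*Cebpb* (NCBI Gene 12608, chr2:167688915-167690432, + strand), the factor of cytokine-driven granulocyte production, rose in Ly6Glow neutrophils. It had 1010.5, 821 and 990.3 CPM in normal lung, 1232, 1214 and 1186 CPM in macrometastatic Ly6Ghigh and 2205, 2419 and 2121 CPM in Ly6Glow, with no overlap. The log2 fold change was 0.89 (edgeR adjusted p = 8.43e-12, SE 0.056) in Ly6Glow over Ly6Ghigh and 1.26 (edgeR adjusted p = 3.37e-15, SE 0.056) in Ly6Glow over normal lung, where FPKM gave 0.56 and no call. Between the Ly6Ghigh groups it was 0.36 (edgeR adjusted p = 3.3e-06, SE 0.056), below the fold threshold, and on FPKM its sign turned, to -0.09. Measured from the median of all genes, that difference kept its sign, at 0.45 on the TMM scale and 0.23 on FPKM. The difference of Ly6Glow over normal lung was 1.41 and 1.05 in the same way. Of the 1504 exon bases of *Cebpb* in GENCODE, 312 are shared with *Tmem189* on the other strand, and *Tmem189* had the same order of levels, at 130 CPM in normal lung, 201 CPM in macrometastatic Ly6Ghigh and 331 CPM in Ly6Glow. The libraries were made to keep strand, but the counting is not stated to use it, so reads of the shared bases may have been split.

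*Cebpd* (NCBI Gene 12609, chr16:15887286-15889545, + strand), which is induced by inflammatory signals and during late maturation, was higher in both macrometastatic groups than in normal lung. It had 85.4, 72.1 and 83.9 CPM in normal lung, 136, 137 and 128 CPM in macrometastatic Ly6Ghigh and 124, 123 and 119 CPM in Ly6Glow. The log2 fold change over normal lung was 0.73 (edgeR adjusted p = 1.4e-11, SE 0.052) for Ly6Ghigh and 0.60 (edgeR adjusted p = 6.65e-10, SE 0.053) for Ly6Glow. The Ly6Glow call was lost without normal lung replicate 2, at 0.53, both were lost with upper-quartile scaling, at 0.54 and 0.41, and on FPKM they stood at 0.27 and, with the sign turned, at -0.09. Measured from the median of all genes, the Ly6Glow difference kept its sign, at 0.76 on the TMM scale and 0.40 on FPKM. The Ly6Ghigh difference was 0.82 and 0.59 in the same way. Between the macrometastatic groups *Cebpd* had a log2 fold change of -0.13 (edgeR adjusted p = 0.0349, SE 0.052), which did not pass the fold threshold. In GENCODE's gene models, which reach beyond the RefSeq span given here, exons of *Spidr* on the other strand share 562 of the 3746 exon bases of *Cebpd*. *Spidr* had 23.2 CPM in normal lung, 33.0 CPM in macrometastatic Ly6Ghigh and 43.7 CPM in Ly6Glow.

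*Spi1* (NCBI Gene 20375, chr2:91082374-91115759, + strand), which encodes PU.1, had 346, 293 and 344 CPM in normal lung, 664, 669 and 653 CPM in macrometastatic Ly6Ghigh and 785, 811 and 758 CPM in Ly6Glow. No groups overlapped. Over normal lung the log2 fold change was 1.02 (edgeR adjusted p = 6.17e-15, SE 0.046) in Ly6Ghigh and 1.26 (edgeR adjusted p = 1.12e-16, SE 0.047) in Ly6Glow, and on FPKM both fell short of the fold threshold, at 0.54 and 0.55. Against the median of all genes they were 1.10 and 1.42 on the TMM scale and 0.86 and 1.04 on FPKM. Between the macrometastatic groups the log2 fold change was 0.24 (edgeR adjusted p = 9.45e-05, SE 0.046), below the threshold, and 0.01 on FPKM. The disease groups stood together against normal lung, which also had the lowest neutrophil marker sum, and the part of that sum was not tested.

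*Irf8* (NCBI Gene 15900, chr8:120736358-120756694, + strand), which favours monocytes and dendritic cells over granulocytes, showed the largest falls below normal lung. It had 123, 113 and 123 CPM in normal lung, 23.99, 24.4 and 23.4 CPM in macrometastatic Ly6Ghigh and 12.6, 13.1 and 11.3 CPM in Ly6Glow, with wide gaps between the groups. The log2 fold change was -0.96 (edgeR adjusted p = 8.08e-10, SE 0.079) in Ly6Glow over Ly6Ghigh, -2.33 (edgeR adjusted p = 3.35e-20, SE 0.053) in macrometastatic over normal lung Ly6Ghigh and -3.28 (edgeR adjusted p = 1.52e-21, SE 0.063) in Ly6Glow over normal lung, and on FPKM these were -1.004, -2.65 and -3.65. Dendritic cell and monocyte and macrophage markers, cells that use *Irf8*, were also highest in normal lung, and their part was not tested. Between the macrometastatic groups the dendritic cell sums overlapped, at 14.4 to 16.6 CPM in Ly6Ghigh and 15.3 to 16.7 CPM in Ly6Glow, while the monocyte and macrophage sums were 676 to 688 CPM and 540 to 555 CPM.

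*Bcl6* (NCBI Gene 12053, chr16:23965050-23988866, - strand), a repressor best known from germinal centre B cells, rose stepwise in the order opposite to *Irf8*. It had 86.3, 75.3 and 82.6 CPM in normal lung, 282, 276 and 272 CPM in macrometastatic Ly6Ghigh and 451, 437 and 438 CPM in Ly6Glow, and no groups overlapped. The log2 fold change was 1.76 (edgeR adjusted p = 6.54e-20, SE 0.042) in macrometastatic over normal lung Ly6Ghigh and 2.44 (edgeR adjusted p = 3e-22, SE 0.042) in Ly6Glow over normal lung. In Ly6Glow over Ly6Ghigh it was 0.68 (edgeR adjusted p = 2.11e-12, SE 0.039), and 0.42 with no call on FPKM. B cell markers summed to 30.4 to 33.0 CPM in normal lung, 48.6 to 49.6 CPM in macrometastatic Ly6Ghigh and 28.9 to 31.0 CPM in Ly6Glow, and their part was not tested. Normal lung also had the lowest neutrophil marker sum. The part of that sum in the rises of *Bcl6* and of the other factors over normal lung was not tested.

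In Ly6Glow over Ly6Ghigh macrometastatic neutrophils, 7 of the 10 factors were called, 2 higher (*Cebpb*, *Bcl6*) and 5 lower (*Cebpa*, *Myb*, *Gfi1*, *Cebpe*, *Irf8*). Of all genes tested, 25.2% were called, 9.29% higher and 15.9% lower. Values did not overlap between the groups for 9 of 10 factors, against 62.1% of all genes. The median log2 fold change was -0.55 over the factors and -0.04 over all genes. On FPKM, 1 factor was higher and 5 were lower, and the share of higher genes among all calls went from 36.8% to 14.3%.

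In macrometastatic over normal lung Ly6Ghigh neutrophils, 5 factors were higher (*Gfi1*, *Cebpe*, *Cebpd*, *Spi1*, *Bcl6*) and 2 were lower (*Cebpa*, *Irf8*). That is 7 of 10, where 62.9% of all genes were called, 26.3% higher and 36.6% lower, so the count of called factors was close to the background. All 10 factors were without overlap, as were 85.2% of all genes, and the median log2 fold change was 0.55 over the factors and -0.09 over all genes. On FPKM, 2 factors were higher (*Cebpe*, *Bcl6*) and 4 were lower (*Cebpa*, *Myb*, *Runx1*, *Irf8*), and the share of higher genes among all calls went from 41.8% to 21.8%.

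In Ly6Glow over normal lung Ly6Ghigh neutrophils, which differ in both sort and disease, 5 factors were higher (*Cebpe*, *Cebpb*, *Cebpd*, *Spi1*, *Bcl6*) and 4 lower (*Cebpa*, *Myb*, *Gfi1*, *Irf8*). Of all genes 69.5% were called, 28.7% higher and 40.8% lower, and 86.8% did not overlap between the groups, against all 10 factors. The median log2 fold change was 0.05 over the factors and -0.16 over all genes. On FPKM only *Bcl6* was higher and 5 factors were lower, *Runx1* among them, and the share of higher genes among all calls went from 41.3% to 14.9%.

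**Figure D3:**
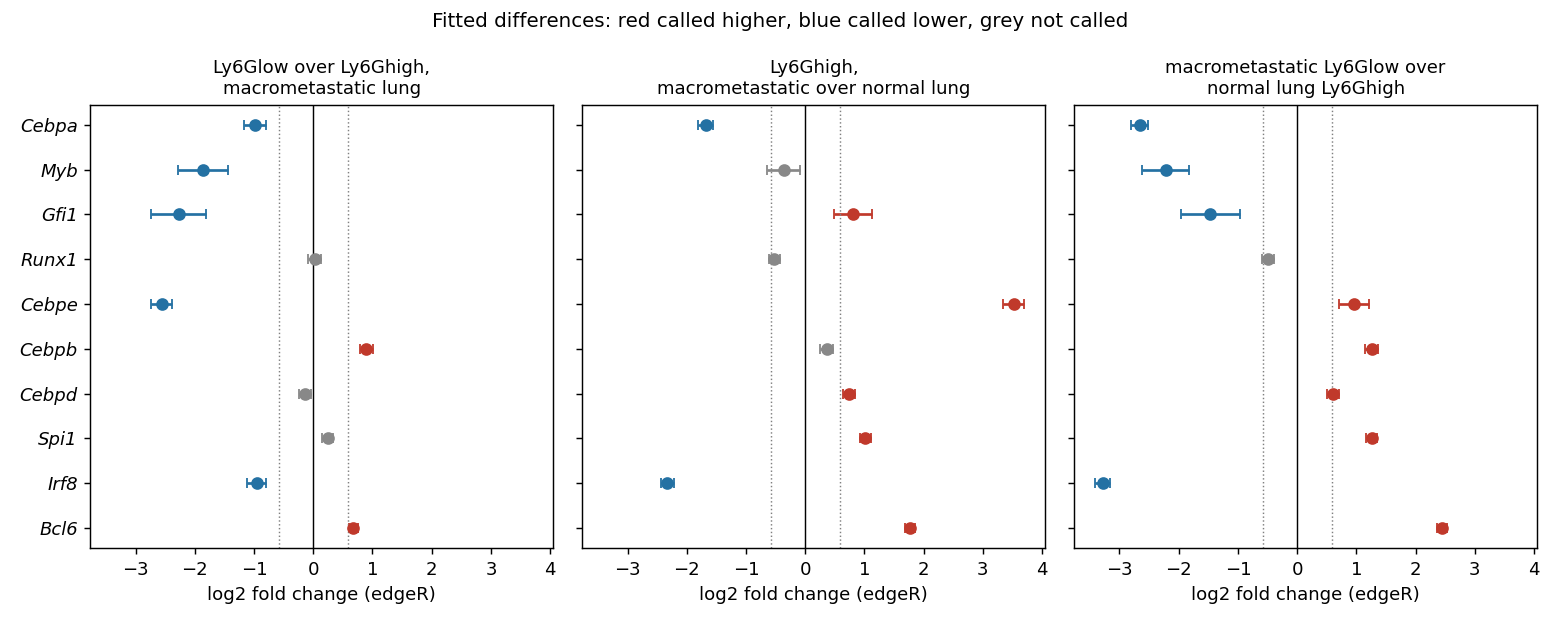
Log2 fold change (edgeR) of each factor in the 3 comparisons, with bars for the 95% interval and dotted lines at the fold threshold of 0.58 on either side of 0. *Cebpe* has the largest value, 3.52 in macrometastatic over normal lung Ly6Ghigh, and *Irf8* the lowest, -3.28 in Ly6Glow over normal lung; on FPKM the signs of *Runx1* in the left panel, *Cebpb* in the middle panel and *Cebpd* in the right panel turn, and those of *Cebpb* and *Cebpd* do not when measured from the median of all genes.

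Levels of different factors were compared per length, in FPKM. *Cebpb* and then *Spi1* were the most abundant in every group, at 837 ± 84.8 and 304 ± 24.5 FPKM (SD, n = 3) in normal lung, 782 ± 12.9 and 442 ± 4.44 FPKM in macrometastatic Ly6Ghigh and 1232 ± 81.3 and 444 ± 14.4 FPKM in Ly6Glow. *Myb* and *Gfi1* were the least abundant in every group, at 2.90 ± 0.624 and 1.04 ± 0.127 FPKM in normal lung, 1.58 ± 0.108 and 1.35 ± 0.0700 FPKM in macrometastatic Ly6Ghigh and 0.360 ± 0.0985 and 0.227 ± 0.0577 FPKM in Ly6Glow, where they overlapped. The ranks between them changed with the group. In normal lung the order below *Spi1* was *Irf8* (56.0 FPKM), *Cebpd* (47.6), *Cebpa* (34.0), *Bcl6* (24.7), *Runx1* (14.2) and *Cebpe* (4.54), and no neighbours overlapped. In macrometastatic Ly6Ghigh it was *Bcl6* (68.5 FPKM), *Cebpd* (57.4), *Cebpe* (37.8), *Irf8* (8.09), *Cebpa* (7.70) and *Runx1* (7.66), with *Cebpa* and *Runx1* overlapping. In Ly6Glow it was *Bcl6* (92.3 FPKM), *Cebpd* (44.4), *Runx1* (6.52), *Cebpe* (5.46), *Irf8* (3.54) and *Cebpa* (3.31), and *Runx1* overlapped *Cebpe* as *Irf8* overlapped *Cebpa*. *Irf8* and *Cebpa* therefore moved down the order outside normal lung, and *Bcl6* moved up.

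Ratios of 2 factors within a library do not depend on how libraries are scaled to each other. The FPKM ratio of *Cebpe* to *Cebpb*, a stage-bound against a cytokine-driven C/EBP factor, was 0.0471, 0.0493 and 0.0487 in macrometastatic Ly6Ghigh, 0.00533, 0.00365 and 0.00439 in Ly6Glow and 0.00533, 0.00515 and 0.00574 in normal lung. Ly6Glow and normal lung overlapped, and macrometastatic Ly6Ghigh stood apart from both. The ratio of *Cebpa* to *Cebpe*, the earlier to the later stage factor, was 7.503, 8.25 and 6.91 in normal lung, 0.207, 0.195 and 0.209 in macrometastatic Ly6Ghigh and 0.553, 0.707 and 0.575 in Ly6Glow. *Cebpa* thus exceeded *Cebpe* only in the normal lung libraries. The ratio of *Spi1* to *Irf8* was 5.58, 5.15 and 5.54 in normal lung, 54.7, 53.9 and 55.2 in macrometastatic Ly6Ghigh and 124, 121 and 132 in Ly6Glow, with no overlap. The ratios are given as values, with no test.

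**Figure D4:**
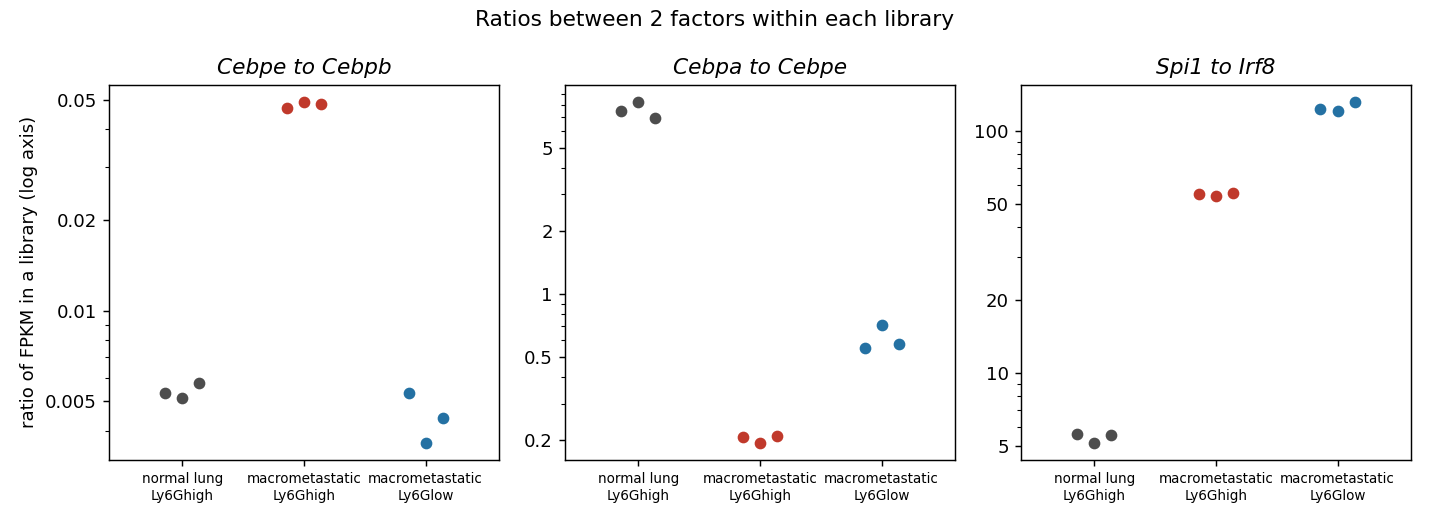
FPKM ratios of 2 factors within each library (log axes), with 1 point per library. *Cebpe* to *Cebpb* is 0.0471 to 0.0493 in macrometastatic Ly6Ghigh and 0.00365 to 0.00574 in the other 6 libraries, *Cebpa* to *Cebpe* is above 1 in normal lung only, and *Spi1* to *Irf8* rises from normal lung over Ly6Ghigh to Ly6Glow.

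For each factor, the 2 genes with the most similar pattern were taken, by the root mean square difference of log2 CPM after centring each gene, over the 9 libraries and among 7398 genes. Pearson's r with the factor ran from 0.959 to 0.999, but the 9 points are 3 groups, so a gene with the same order of group levels scores highly. The genes closest to *Cebpe* were granule genes, *Mpo*, which encodes myeloperoxidase (28.8, 6.74 and 2.15 CPM in macrometastatic Ly6Ghigh, Ly6Glow and normal lung), and *Ltf*, which encodes lactoferrin (11444, 3052 and 1742 CPM), at differences of 0.31 and 0.37 on the log2 scale, the loosest matches of the 20. *Bcl6* was closest to *Asprv1* (difference 0.044, r = 0.999) and *Tgm1* (0.046). *Cebpa* was closest to *Lmna*, which encodes the nuclear lamins A and C (77.5, 37.6 and 247 CPM), and to *Iars*. *Irf8* was closest to *Itgb5* (13.6, 6.55 and 60.8 CPM) and *Nfix*, *Spi1* to *Acox3* and *Brpf1*, and *Cebpd* to *Aspscr1* and *Rasgrp2*. *Cebpb* was closest to *Col11a2* and *Fgd3*, and *Runx1* to *Dip2a* and the immunoproteasome gene *Psmb8*. *Gfi1* was closest to the condensin gene *Ncapg2* (0.16) and to *Jchain* (0.25), the immunoglobulin joining chain of plasma cells, and *Myb* to *Marveld1* (0.26) and *Inhba* (0.29). On log2(FPKM + 1), 5 of these 20 genes were again among the closest.

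**Figure D5:**
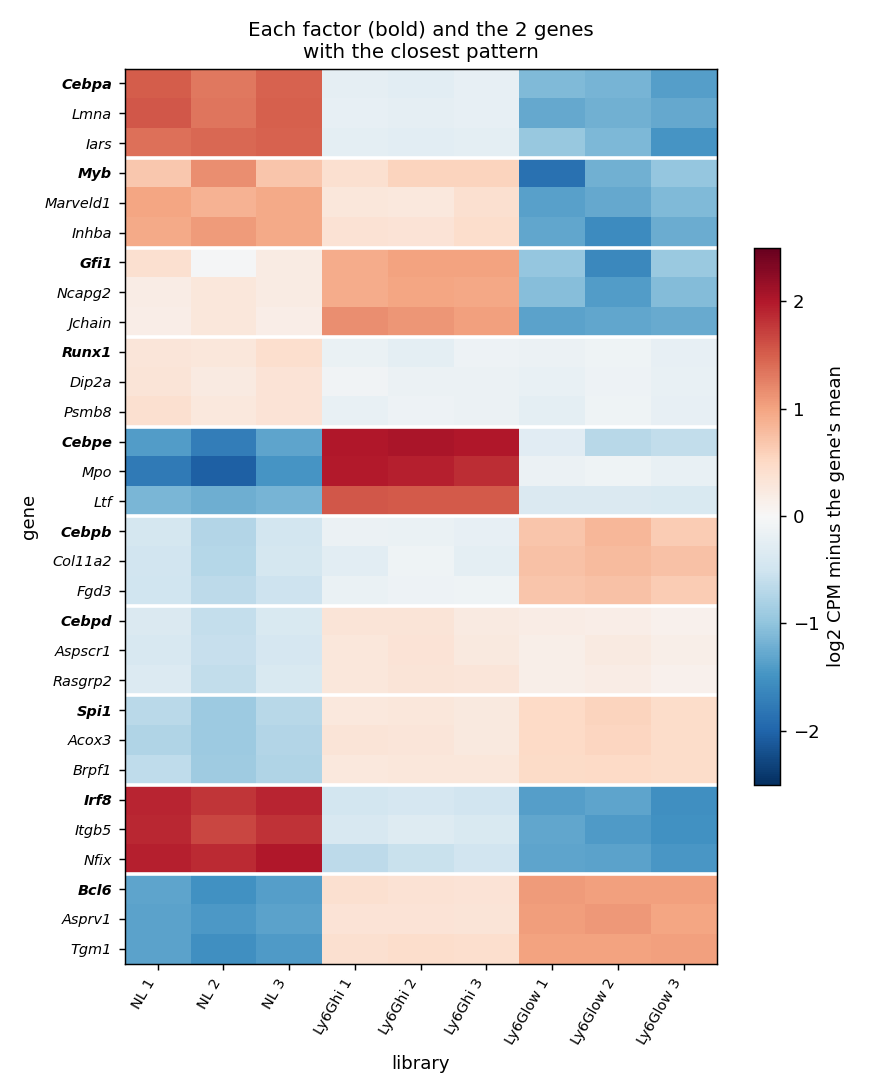
Log2 CPM of each factor (bold) and its 2 closest genes, as the difference from the gene's mean over the 9 libraries (red above, blue below), with columns for libraries. *Cebpe*, *Mpo* and *Ltf* are highest in macrometastatic Ly6Ghigh, and *Bcl6*, *Asprv1* and *Tgm1* rise from normal lung to Ly6Glow.

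Partners of the 10 factors, other transcription factors and cofactors of blood cells, were counted in the same fit, with 38 of 40 tested. The counts of this and the next lists stand beside 9.29% of all genes higher and 15.9% lower in Ly6Glow over Ly6Ghigh, 26.3% and 36.6% in macrometastatic over normal lung Ly6Ghigh and 28.7% and 40.8% in Ly6Glow over normal lung. In Ly6Glow over Ly6Ghigh, 3 were higher, 11 lower and 24 not called, with a median log2 fold change of -0.15. The largest rises were of the immediate early gene *Egr1* (571.5 against 298 CPM, log2 fold change 0.94) and of *Id1* (0.69), with *Mxd1* the other gene called higher, and the largest falls of *Erg* (10.0 against 33.9 CPM, -1.76) and *Lyl1* (9.86 against 27.5 CPM, -1.48), which act in stem and progenitor cells. Leaving out Ly6Glow replicate 3 took the higher count from 3 to 5, as DESeq2 size factors did. In macrometastatic over normal lung Ly6Ghigh, 12 were higher and 18 lower (median -0.25), with the largest rises in *Lyl1* (1.64) and *Nfil3* (1.48) and the largest falls in *Lef1* (-3.28), a T cell and progenitor factor, and *Meis1* (-2.32). In Ly6Glow over normal lung, 9 were higher and 19 lower (median -0.58), led by *Nfil3* (526 against 127 CPM, 2.05) and the retinoic acid receptor gene *Rara* (1.65) and by *Meis1* (-3.88) and *Lef1* (-3.10). On FPKM the higher counts fell from 3, 12 and 9 to 1, 6 and 4.

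Granule, maturity and progenitor genes were read with 4 further lists. The list of primary granule genes, which are made at the promyelocyte stage, had 10 of 12 tested. It also holds *Calr* and *Igfbp4*, which are not particular to primary granules. In Ly6Glow over Ly6Ghigh, 1 was higher and 7 lower (median -1.70), with *Ms4a3* (-4.00) and *Elane* (-2.83), which encodes neutrophil elastase, falling most and the proteoglycan gene *Srgn* rising by 1.07. Over normal lung, macrometastatic Ly6Ghigh had 6 higher and 2 lower (median 3.48), with *Prtn3* at 36.1 against 0.737 CPM (log2 fold change 5.60) and *Ms4a3* at 12.9 against 0.376 CPM (5.07), and with *Igfbp4* (-2.73) and *Calr* (-0.71) lower. In Ly6Glow over normal lung, 7 were higher and 3 lower (median 1.396), led by *Prtn3* (3.35) and *Serpinb1a* (1.85) and by *Igfbp4* (-3.02) and *Lyz2* (-1.24), with *Calr* the other gene called lower. On FPKM, 3 and not 7 were higher in that comparison.

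Secondary granule genes, which include known targets of *Cebpe*, had all 15 tested. Of them, 1 was higher and 7 lower in Ly6Glow over Ly6Ghigh (median -0.49): *Camp*, the cathelicidin gene, had 159 against 934 CPM (-2.55) and *Chil3* had 277 against 1274 CPM (-2.20), while *Mmp8* rose by 0.70, a call lost on FPKM. In macrometastatic over normal lung Ly6Ghigh, 13 were higher and 0 lower (median 2.31), led by *Cd177* at 4162 against 508 CPM (3.04) and *Abca13* (2.75). In Ly6Glow over normal lung, 11 were higher and 3 lower (median 1.57), with *Cd177* (2.64) and *Mmp8* (2.56) rising most and *Chil3* (-1.80) and *Cybb* (-0.63) falling most, beside *Arg1*. With DESeq2 size factors 1 and not 3 was lower in that comparison.

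Genes of mature neutrophils had all 19 tested. Of them, 9 were higher and 0 lower in Ly6Glow over Ly6Ghigh (median 0.51), with *Cd101* at 122 against 46.8 CPM (1.38). In macrometastatic over normal lung Ly6Ghigh, 11 were higher and 2 lower (median 0.81), with *Stfa2l1* (2.33) and the chemokine receptor gene *Cxcr2* (1.73) highest and *Mme* (-2.64) and *Cd101* (-1.15) lowest. In Ly6Glow over normal lung, 14 were higher and 1, *Mme* (-2.62), was lower (median 1.53), led by *Stfa2l1* (2.72) and *Cxcr2* at 2713 against 516 CPM (2.39). On FPKM the lower counts were 4 in macrometastatic Ly6Ghigh and 2 in Ly6Glow. *Csf3r*, *Cxcr2*, *Itgam* and *Retnlg* of this list are also neutrophil markers. All 6 neutrophil markers were higher over normal lung, with medians of 1.67 in macrometastatic Ly6Ghigh and 2.09 in Ly6Glow. The part of the neutrophil share of RNA in the differences from normal lung was not tested.

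Progenitor and cell division genes had all 19 tested. Of them, 10 were lower in Ly6Glow over Ly6Ghigh (median -0.91), with *Fcnb* at 4.09 against 41.0 CPM (-3.33) and the cyclin gene *Ccna2* at 3.42 against 28.7 CPM (-3.07) falling most. *Kit*, the stem cell factor receptor, rose alone, at 225 against 104 CPM (1.11), and without macrometastatic Ly6Ghigh replicate 3 the count of higher genes was 2. In macrometastatic over normal lung Ly6Ghigh, 7 were higher and 5 lower (median -0.13), with *Fcnb* (4.04) and *Ccnb1* (2.12) highest and *Sox4* (-3.97) and *Cd34* (-2.23) lowest, followed by *Cdk6*, *Flt3* and *Mcm2*. Without macrometastatic Ly6Ghigh replicate 1 or normal lung replicate 3 the lower count was 3, while on FPKM it was 9. In Ly6Glow over normal lung, 2 were higher and 14 lower (median -1.03), with *Kit* (1.95) and *Fcnb* higher and *Sox4* (-3.38) and *Mcm2* (-2.24) lowest, and without normal lung replicate 3 only 1 was higher. Dendritic cell, epithelial, endothelial and fibroblast markers were also highest in normal lung, and *Flt3* is on the dendritic cell list too. The part of such cells in the falls below normal lung was not tested. The lists were written from general knowledge, and their medians stand beside those of all genes, -0.04, -0.09 and -0.16.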

How the data were processed

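RNA of sorted lung neutrophils was sequenced by BGI as poly(A)-selected, strand-specific, paired-end libraries. The authors deposited, per gene and library, estimated counts of reads without normalization and FPKM, scaled to transcript length and library total; the program that made them is not given in the sources used here, and the submitters' processing notes name the build mm10. Of 22064 genes listed, 3739 were blank. The deposited estimated counts, 37.9% of them whole, were rounded.

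Groups came from the titles and treatment fields; the description of the normal lung libraries names only the Ly6Ghigh group. In R 4.3.3, edgeR 4.0.16 (TMM, filterByExpr, quasi-likelihood F test, 9 libraries in 1 model) tested 14108 genes with Benjamini-Hochberg adjustment. The limits of 0.05 and 0.58 are those of the study's methods, which used DESeq2. Those methods name a P value and state no adjustment, whereas the p was adjusted here. The SE is the log2 fold change divided by the square root of F, and intervals are 1.96 SE. FPKM was compared with limma 3.58.1 on log2(FPKM + 1), which understates changes of low genes. Similar patterns were sought among tested genes with a mean of at least 10 CPM. The scripts were tested on simulated data.

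The factors were given by name, and lists and tests were chosen with earlier results of these data known. Named were all 10 factors, the 2 closest genes of each, and, per list and comparison, the 2 largest called rises and falls with at least 5 CPM in the higher group; *Mxd1*, *Hp*, *Calr*, *Arg1*, *Cdk6*, *Flt3*, *Mcm2* and *Fcnb* in counts of 5 or fewer were named after their values were seen. Some genes that the rule names are not reported here. Alternatives were other scalings, filters, thresholds and tests, DESeq2 1.42.0, a replicate block and leaving out each library. RefSeq promoters were matched by NCBI Gene ID, and positions are GRCm38 (mm10).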

Additional observations from a re-analysis of the deposited data

How the results depend on the processing

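Of 657 values of the 10 factors under 22 alternatives, 593 kept direction and side of the threshold; 39 of the 64 changes came on FPKM and 14 with another fold threshold. Of the 30 pairs of factor and comparison, 12 changed under no alternative. The sign turned for *Runx1* in Ly6Glow over Ly6Ghigh, to -0.20 with limma on log2(FPKM + 1), with or without a minimum FPKM, to -0.23 with a pseudocount of 0.1, to -0.0016 without macrometastatic Ly6Ghigh replicate 2 and to -0.0075 without Ly6Glow replicate 2, in a leave-one-out range of -0.0075 to 0.049. It turned on all FPKM settings for *Cebpb* in macrometastatic over normal lung Ly6Ghigh (-0.094) and for *Cebpd* in Ly6Glow over normal lung (-0.094, and -0.096 with a pseudocount of 0.1). The calls of factors numbered 7, 7 and 9 in Ly6Glow over Ly6Ghigh, macrometastatic over normal lung Ly6Ghigh and Ly6Glow over normal lung. A fold threshold of 1 left 3 in the first. Leaving out a library gave 7 to 7, 7 to 7 and 8 to 9. With the replicate block the counts were again 7, 7 and 9, and 3522, 8856 and 9775 genes were called in all; same-numbered libraries correlated by -0.29 to 0.12, so the numbers were not taken to pair libraries. The closest genes shared 20 of 20 with DESeq2 size factors and 5 of 20 on log2(FPKM + 1). Of 660 list counts, 62 moved by over 1.5 times, 43 of them on FPKM or with another fold threshold. FPKM, scaled to each library's total, does not carry the TMM factors. They were 0.803 to 0.807 in Ly6Glow, 0.945 to 0.950 in macrometastatic Ly6Ghigh and 1.30 to 1.32 in normal lung. On FPKM the median of all genes in Ly6Glow over normal lung was -0.49 with a pseudocount of 1 and -0.81 with 0.1. Values measured from that median thus depend on the pseudocount. How much of each FPKM change these settings account for was not tested. Depth limits *Gfi1* and *Myb* in Ly6Glow, which rest on 7 to 12 and 13 to 27 counts.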
